A study of Drosophila melanogaster with 4 samples.

Results

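The X chromosome of Drosophila melanogaster third-instar larvae was examined for regions enriched in H3K9ac, histone H3 acetylated on lysine 9. The regions, called clusters, were those of the 2 ChIP replicate lists whose midpoint lay on X outside the 2 Mb at each end, that is up to position 20422827 of FlyBase release 5. This stretch of 18.4 Mb, called the X middle, held 879 clusters in replicate 1, of 6545 in that list, and 965 in replicate 2, of 7629. The study used wild-type Oregon-R (Oregon-R-modENCODE) larvae, with 2 H3K9ac ChIP libraries and 2 input libraries, and all groups shared strain and stage. Whole larvae hold many tissues, and the labels separate neither tissues nor sexes. The labels do not state that the replicates were collected separately, and their spread may be technical. The middles of 2L, 3L and 3R, cut the same way, served as the comparison, and arm 2R was not part of it.

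H3K9ac is a mark of active promoters, and in flies it is placed largely by complexes that contain the acetyltransferase Gcn5. The X chromosome is present in one copy in males, where the MSL complex spreads over active X genes and its subunit MOF acetylates lysine 16 of histone H4. H3K9ac is a different mark from that one, and whether the authors' processing accounts for X copy number is not stated. Each cluster carries a deposited score, which behaves as a log2 ratio whose denominator is not stated. A score difference of 1 would then be a factor of 2. The files hold no read counts, so library depth is unknown, and how much of any window could be mapped was not tested. Clusters are named by position, since no gene annotation of release 5 was used here.

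The X middle carried fewer clusters than the 3 autosome arm middles, and its clusters scored higher. There were 47.7 clusters per Mb on X in replicate 1 and 52.4 in replicate 2 (50.0 ± 3.30, SD, n = 2). The arms ranged from 51.1 to 55.9 per Mb in replicate 1 and from 58.9 to 66.5 in replicate 2, so X was the lowest in each replicate. X minus the mean of the 3 arms was -6.58 per Mb in replicate 1 and -10.7 in replicate 2 (-8.62 ± 2.88, SD, n = 2). Clusters covered 15.5% of the X middle in replicate 1 and 15.9% in replicate 2, against 17.1% and 17.9% on average over the arms. The nearest arm was 2L, with 16.0% and 16.6%, and the highest was 3R, with 18.3% and 19.6%. The covered share on X differed from the arm mean by -1.84 ± 0.335 percentage points (SD, n = 2). The median score on X was 0.91 in replicate 1 and 0.80 in replicate 2, against 0.70 to 0.75 and 0.62 to 0.65 on the arms. The difference from the arm mean was 0.19 in replicate 1 and 0.17 in replicate 2 (0.18 ± 0.015, SD, n = 2), which on a log2 scale is a factor of 1.13. In the authors' list for the replicate set, the score difference was smaller, at 0.073, and the coverage difference larger, at -3.31 points.

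The differences between X and the arm mean were larger than their SD over the 2 replicates for density, covered share and score. Without pairing by library, the X scores and covered shares did not overlap those of the arms. The nearest covered shares were 15.86% on X in replicate 2 and 16.00% on 2L in replicate 1. They lay closer than the SD of X (0.28 points) or 2L (0.40 points). The X density of replicate 2 lay above the 2L density of replicate 1. X copy number, which differs by sex, and library depth were not tested. An exact paired permutation test over the 2 libraries gave p = 0.5 (two-sided, adjusted p = 0.5 over 5 measures) for each, which is the smallest p that 2 libraries allow, so none can pass 0.05. In the top-scoring 50% of each list, the directions turned: X then carried 4.04 more clusters per Mb and was covered to 1.18 points more than the arm mean. The score difference there was 0.035. This selection keeps more of X by construction, because X scored higher.

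**Figure D1:**
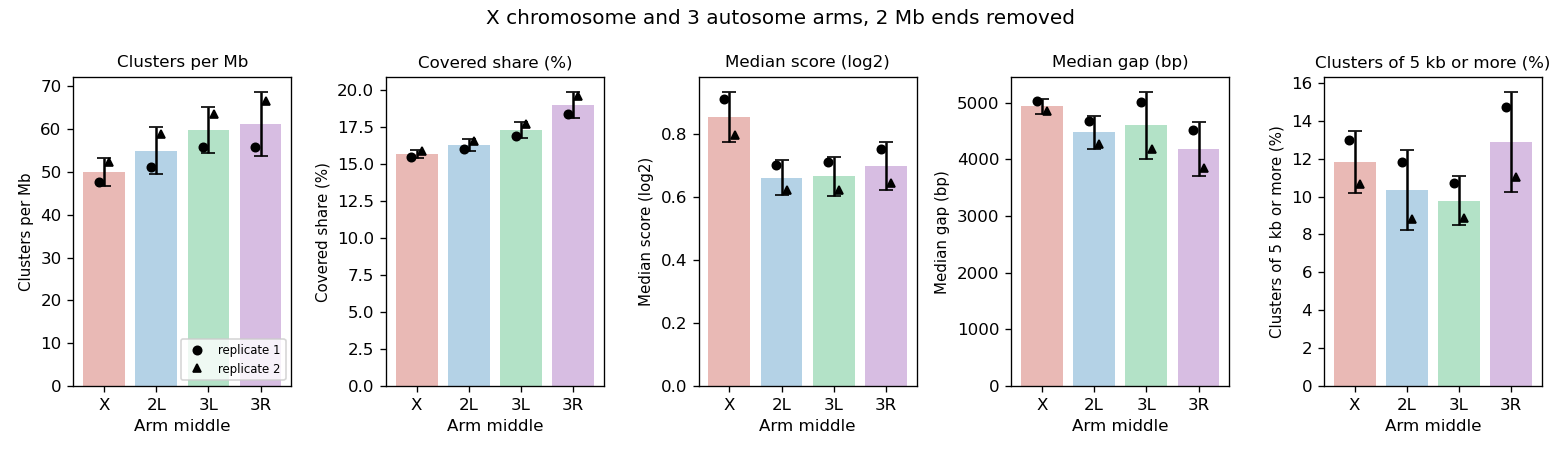
Each panel shows 1 measure for the middles of X, 2L, 3L and 3R: clusters per Mb, covered share (%), median score (log2), median gap (bp) and clusters of 5 kb or more (%). Bars are means of the 2 replicates, whiskers are SDs, and points are the replicates; X has the lowest density and covered share and the highest median score in both.

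The deficit on X lay among clusters scoring up to 1, while the strongest class was denser on X than on each of the 3 arms. Clusters scoring up to 0.5 numbered 4.99 per Mb on X in replicate 1 and 5.37 in replicate 2. The arms held 11.7 to 14.0 per Mb in replicate 1 and 14.3 to 15.6 in replicate 2, so the ranges were far apart. Between 0.5 and 1, X held 21.5 per Mb in replicate 1, where the arms held 22.2 to 24.3. In replicate 2 it held 27.4, where the arms held 28.6 to 33.9. Between 1 and 1.5, X held 14.6 per Mb in replicate 1, above the arms at 12.05 to 14.1. In replicate 2 its 13.1 per Mb lay inside the range of the arms, 11.5 to 13.5. Above 1.5, X held 6.57 per Mb in each replicate, from 121 clusters in either list. The arms held 4.58 to 5.81 per Mb in replicate 1 and 3.50 to 4.77 in replicate 2. The 5th percentile of the score on X was 0.44 in replicate 1, above 0.38 on each arm, and 0.43 in replicate 2, above arm values of 0.36 to 0.38. At the 99th percentile X reached 2.04 in replicate 1, with arm values of 1.89 to 2.02, and 1.96 in replicate 2, with arm values of 1.80 to 1.85.

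**Figure D2:**
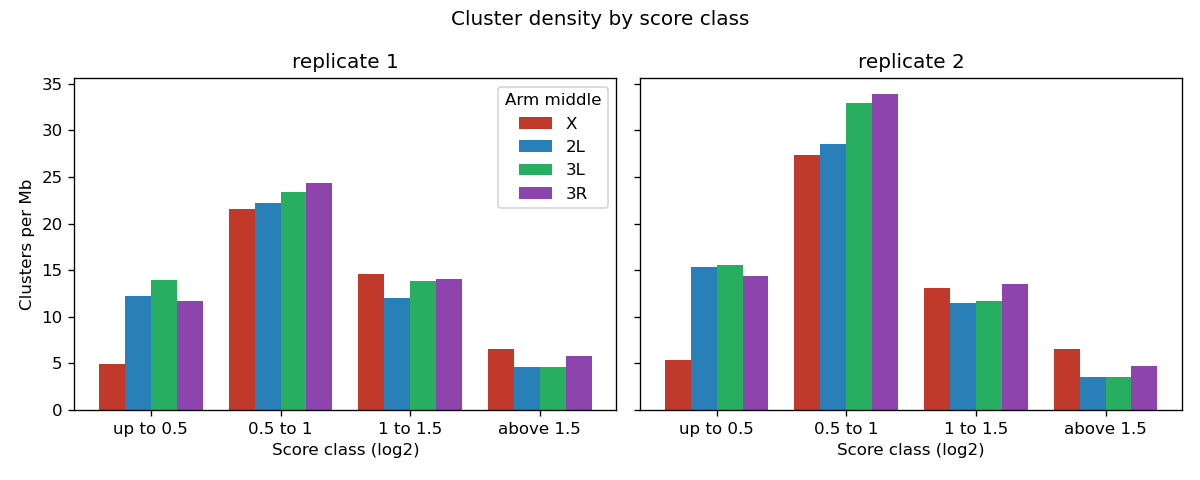
Clusters per Mb (vertical axis) are plotted by score class (log2, horizontal axis) for the middles of X and 3 autosome arms, with 1 panel per replicate and no error bars. The X bars are the lowest up to a score of 1 and the highest above 1.5, where X holds 6.57 per Mb in each replicate.

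Most X clusters were short, and the higher score of X was present within length classes. In replicate 1, 23.8% of X clusters were under 2000 bp and 32.5% were from 2000 to under 3000 bp. A further 30.7% were from 3000 to under 5000 bp. In replicate 2 the shares were 31.4%, 30.1% and 27.9%. The shortest X cluster was 1306 bp in replicate 1 and 1301 bp in replicate 2, and the longest was 17933 bp and 17859 bp. The sparse classes on X were the short ones. Clusters under 2000 bp numbered 11.3 per Mb on X in replicate 1, where the arms had 13.01 to 15.7. In replicate 2 they numbered 16.4 on X, where the arms had 21.9 to 23.3. Clusters from 3000 to under 5000 bp numbered 14.7 and 14.6 per Mb on X, inside the range of the arms in each replicate, 13.4 to 15.8 and 12.3 to 16.5.

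Longer X clusters scored higher in each replicate. Spearman's rho between length and score was 0.71 over 879 clusters in replicate 1 and 0.78 over 965 in replicate 2. The arms gave similar values, 0.71 to 0.75 in replicate 1 and 0.76 to 0.77 in replicate 2. Clusters of 1 library are not independent. The median score of X clusters rose over the length classes from 0.51 under 2000 bp to 1.24 from 3000 to under 5000 bp in replicate 1. In replicate 2 it went from 0.54 to 1.19. In each of the 4 classes below 10000 bp the X median lay above that of each of the 3 arms in each replicate. From 3000 to under 5000 bp, the arms had medians of 1.03 to 1.15 in replicate 1 and 0.99 to 1.06 in replicate 2. X minus the arm mean was 0.065 and 0.068 in the shortest class in replicates 1 and 2, 0.16 and 0.095 in the next, and 0.15 and 0.16 from 3000 to under 5000 bp. Clusters of 10000 bp or more were few, 9 on X in replicate 1 and 11 in replicate 2. There the X median of 1.33 in replicate 2 lay inside the range of the arms, 1.10 to 1.496.

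**Figure D3:**
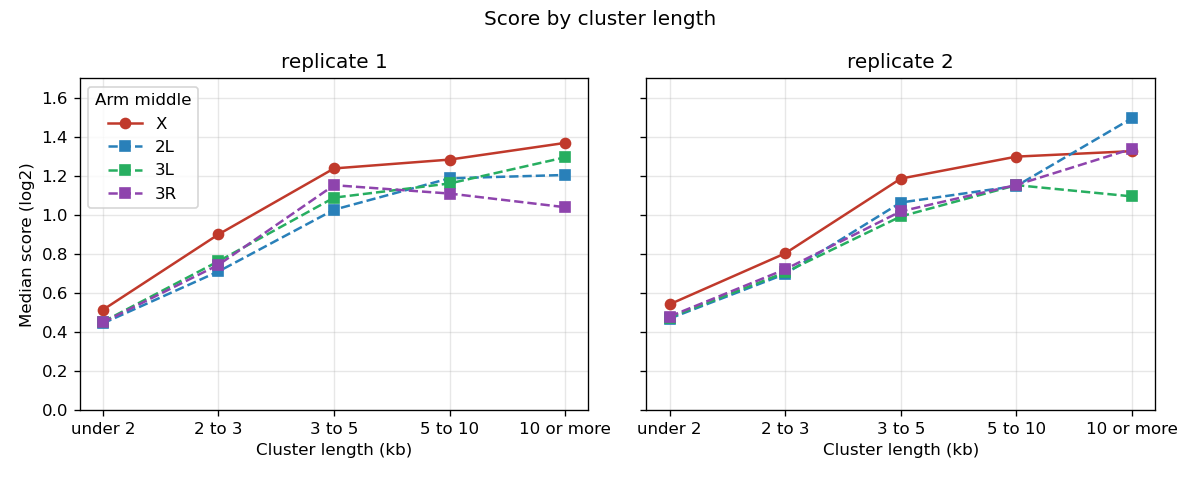
The median score (log2, vertical axis) is plotted against cluster length class (kb, horizontal axis) for the middles of X and 3 autosome arms, with 1 panel per replicate and no error bars. The X line lies above the others in each class below 10 kb, and in replicate 2 it lies below 2L and 3R at 10 kb or more.

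The share of broad domains on X lay inside the range of the arms, and those marked in both replicates scored higher than the shorter regions. Clusters of 5 kb or more made up 12.97% of X clusters in replicate 1 and 10.7% in replicate 2 (11.8% ± 1.62, SD, n = 2), against 12.6% and 9.92% over the whole lists. The arm shares ran from 10.7% to 14.7% in replicate 1 and from 8.84% to 11.0% in replicate 2, and X lay between them in each. The difference from the arm mean was 0.82 ± 0.399 points (SD, n = 2, exact paired permutation p = 0.5). It turned to -2.50 points in the top-scoring 50% of each list, and was 2.41 points with 4 Mb removed at each end. Just under the 5 kb limit, the nearest X clusters were 4999 bp (score 0.88) in replicate 1 and 4984 bp (0.78) in replicate 2. Just over it they were 5008 bp (1.94) and 5020 bp (1.43).

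Sequence covered in both replicates formed 813 regions in the X middle, and 78 of them were at least 5 kb long. These 78 had a median mean score of 1.35, against 0.92 in shorter shared regions, and 67 of them scored above 1. The arms had medians of 1.23 to 1.25 for shared regions of that length and of 0.70 to 0.73 for shorter ones. Shared regions of at least 5 kb numbered 4.23 per Mb on X, against 4.26 on 2L, 4.38 on 3L and 5.56 on 3R. They were unevenly placed. The 1 Mb windows from 15000001 and from 16000001 held 9 and 8, while the windows from 3000001, 12000001 and 18000001 held 1 each. The longest stretch of X without one ran from 2490776 to 3739567, a length of 1249 kb.

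The longest shared domain of the X middle was X:9041709-9059472. It spanned 17.8 kb, was 1 cluster in each replicate and scored 1.60 in replicate 1 and 1.61 in replicate 2. The next was X:11462024-11476227, of 14.2 kb, with scores of 1.47 and 1.46. Another long domain, X:11484907-11495286, began 8.68 kb beyond it and spanned 10.4 kb. It scored 1.35 in replicate 1, where the cluster was 15313 bp long, and 1.05 in replicate 2, where it was 10380 bp. The pair lay in the window from 11000001 to 12000000. The rest of the 5 longest were X:15625466-15636707, with scores of 1.37 and 1.32, and X:18534153-18545388, with 1.31 and 1.28. At the latter, cluster length was 11236 bp in the first replicate and 14598 bp in the other. Replicate scores of these 5 domains lay within 0.05 of each other in 4 cases, and X:11484907-11495286 was the exception. A shorter shared domain above 10 kb, X:7948977-7959131, scored 1.44 and 1.33.

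The highest-scoring shared regions of X were shorter. X:6187461-6191119 scored 2.39 in replicate 1 and 2.10 in replicate 2 (2.25 ± 0.20, SD, n = 2). It was a cluster of its own of 3659 bp in replicate 1 and part of a 13572 bp cluster in replicate 2. The next was X:17528415-17531881, with 2.03 and 2.16. It was the only one of the top 5 that scored higher in replicate 2. X:11252370-11254676 scored 2.15 and 1.89, and X:9445528-9451433, of 5.91 kb, scored 2.15 and 1.88. X:16211627-16215181 scored 2.19 and 1.85 and stood within the longest train of clusters on X, described below.

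Along the chromosome, some dense and sparse windows of 1 Mb stood next to each other. This depended on window size: covered shares of adjacent 100 kb windows had a Pearson's r of 0.29 in replicate 1 and 0.32 in replicate 2. In 18 full windows of 1 Mb, the covered share ran from 8.01% to 21.8% in replicate 1 (median 15.6%) and from 7.25% to 22.0% in replicate 2 (median 16.2%). The densest window by sequence covered in both replicates was X:15000001-16000000, with 20.9% and 21.4% covered. It was followed by X:11000001-12000000, with 21.8% and 22.0%, and X:6000001-7000000, with 21.3% and 20.5%. The sparsest was X:12000001-13000000, with 9.10% and 7.25%, directly beside one of the densest. Next came X:14000001-15000000, with 8.01% and 9.62%, directly before the densest of all. The third sparsest was X:3000001-4000000, with 10.2% and 9.67%. Over the 18 windows the replicates' covered shares had a Pearson's r of 0.90, and their cluster counts 0.88. The arms gave higher values, 0.95 to 0.98 for covered shares and 0.92 to 0.96 for counts. These are descriptions across windows of 2 libraries, which share the genome sequence.

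**Figure D4:**
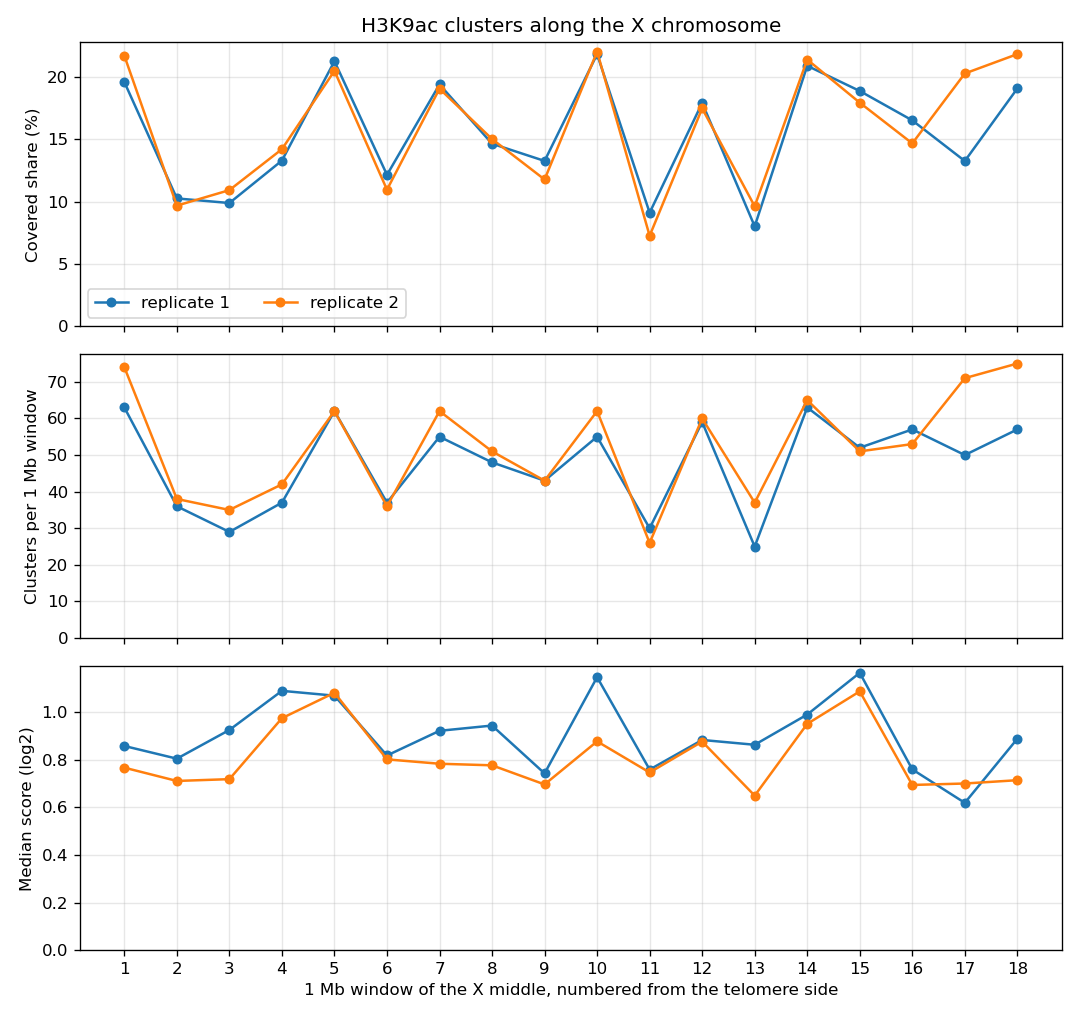
Covered share (%), number of clusters and median score (log2) are plotted for the 18 full 1 Mb windows of the X middle, numbered from the telomere side, with 1 line per replicate and no error bars. Covered share differs most between the replicates in window 17, at 13.3% and 20.3%, while counts also differ in window 13 (25 and 37) and window 18 (57 and 75), and median scores in window 10 (1.15 and 0.88).

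Scores also varied along X, and 1 Mb windows with more coverage tended to score higher. The median score per 1 Mb window ran from 0.62 to 1.17 in replicate 1 and from 0.65 to 1.09 in replicate 2. Window X:16000001-17000000 was the highest in each replicate, with 1.17 and 1.09, from 52 and 51 clusters. The lowest differed between replicates, X:18000001-19000000 in replicate 1 (0.62) and X:14000001-15000000 in replicate 2 (0.65). Across the 18 windows, the covered share and the median score had a Pearson's r of 0.52 in replicate 1 and 0.42 in replicate 2, and both values come from the same clusters. On 2L the same r was 0.46 and 0.39, on 3L 0.36 and 0.062, and on 3R 0.49 and 0.45. On X it was weaker in smaller windows, at 0.38 and 0.29 over 500 kb windows and 0.25 and 0.16 over 100 kb windows.

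From the telomere side to the centromere side, density was highest and score lowest in the last segment. In 4 equal segments of the X middle, cluster density was 43.0, 47.3, 46.9 and 53.6 per Mb in replicate 1, counted from the telomere side. In replicate 2 it was 48.9, 48.6, 50.8 and 61.2 per Mb, so the segment nearest the centromere was the densest in each. That segment also had the lowest median score, 0.83 in replicate 1 and 0.73 in replicate 2, against 0.92 to 0.93 and 0.80 to 0.82 in the others. It holds the block X:18100001-18800000, described below, and was not measured without it. The block had 62.9 and 92.9 clusters per Mb in replicates 1 and 2, with median scores of 0.65 and 0.70. Each X segment scored above each segment of the 3 arms in its replicate, whose highest medians were 0.82 in replicate 1 and 0.67 in replicate 2. Pearson's r between distance from the telomere side and the covered share of 1 Mb windows was 0.17 in replicate 1 and 0.25 in replicate 2. On 2L it was -0.41 and -0.50, on 3L 0.11 and 0.084, and on 3R -0.027 and -0.098. The centromere-side segment was also the densest on 3L, at 60.6 and 71.7 per Mb, but not on 2L or 3R.

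At finer scale, 100 kb windows of the X middle ranged from no cluster midpoint to about 50% of sequence marked. The densest 100 kb window, X:15600001-15700000, had 50.4% of its sequence marked in replicate 1 and 50.3% in replicate 2, by 9 clusters each. X:19500001-19600000 was covered to 49.0% and 53.6%, by 14 and 13 clusters with median scores of 1.40 and 1.39. The third was X:2100001-2200000, with 44.4% and 45.0%. Of the 184 full 100 kb windows, 22 (11.96%) had at least 25% covered in both replicates, against 15.6% to 20.5% on the arms. No cluster midpoint lay in 15 (8.15%) in either replicate, against 5.85% on 3L, 6.28% on 3R and 11.6% on 2L. The longest runs of such empty windows were 200 kb, at X:4600001-4800000, X:5000001-5200000 and X:19800001-20000000. The last lay 200 kb beyond the dense window from 19500001, in the same 1 Mb window.

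At the telomere-side boundary of the X middle, the first cluster inside scored 0.93 in replicate 1 and 1.08 in replicate 2, and the last cluster outside scored 0.69 and 0.64. At the centromere side, the last cluster inside scored 1.54 and 1.38, and the first outside 0.91 and 0.72.

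The median gap on X was the longest of the 4 arm middles in each replicate, and gaps of 40 kb or more held most of its unmarked sequence. The median gap between neighbouring clusters was 5032 bp in replicate 1 and 4849 bp in replicate 2 (4940 ± 130 bp, SD, n = 2). The arm mean was 4738 bp and 4101 bp, a difference of 521 ± 321 bp (SD, n = 2, exact paired permutation p = 0.5). In replicate 1 the gap on 3L was 5020 bp, within 13 bp of X. In the top-scoring 50% of each list, the difference was -1382 bp. With 1 Mb removed at each end it was -42 bp in replicate 1 and 682 bp in replicate 2, and with 4 Mb removed -109 and 778 bp, so the replicates then differed in direction. Gaps of 40 kb or more were 11.7% of X gaps in replicate 1 and 10.2% in replicate 2, against 9.51% to 10.3% and 6.86% to 7.96% on the arms. Per Mb they numbered 5.59 on X in replicate 1, inside the range of the arms, 5.26 to 5.70. In replicate 2 they numbered 5.32 per Mb, above the arms at 4.56 to 5.06. Gaps of this length held 64.1% and 59.2% of the unmarked sequence of X. On the arms they held 53.5% to 59.7% in replicate 1 and 48.7% to 53.3% in replicate 2, so X was the highest in each.

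**Figure D5:**
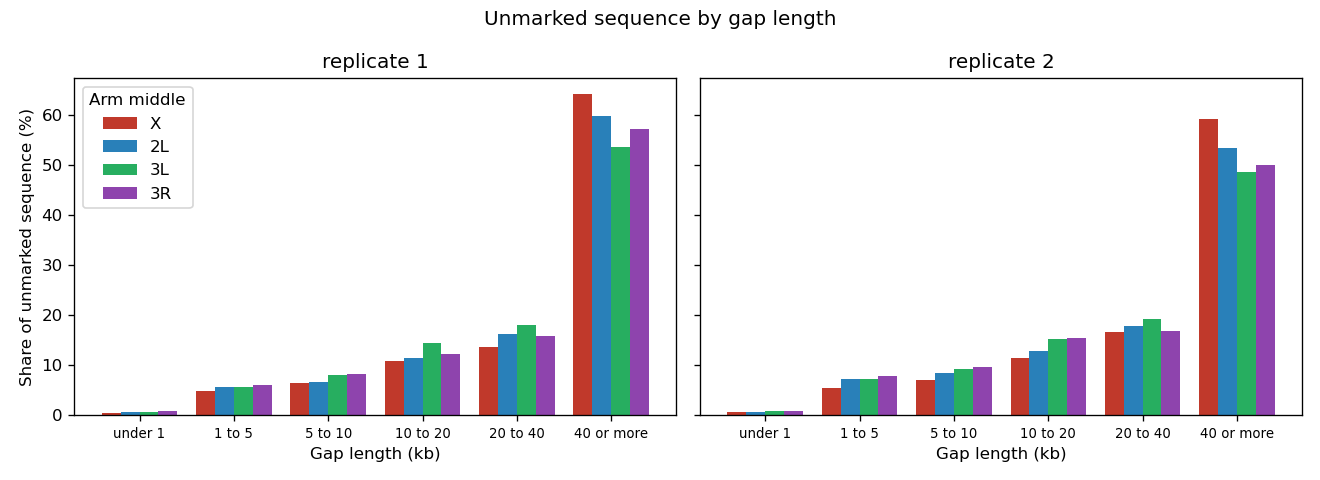
The share of unmarked sequence (%, vertical axis) is plotted by gap length (kb, horizontal axis) for the middles of X and 3 autosome arms, with 1 panel per replicate and no error bars. Gaps of 40 kb or more hold 64.1% of unmarked X sequence in replicate 1 and 59.2% in replicate 2, more than on each arm.

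X had many long unmarked stretches but not the longest ones. Stretches of at least 100 kb without a cluster in either replicate numbered 33 in the X middle, or 1.79 per Mb. There were 1.47 per Mb on 2L, 1.25 on 3R and 0.83 on 3L. They took up 25.8% of the X middle, against 12.97% to 23.9% of the arm middles. Yet the longest on X was 227 kb, against 335 kb on 3R, 364 kb on 3L and 478 kb on 2L. It ran from 12113494 to 12340459 and held 3 clusters of the replicate set, scoring up to 0.48. Next were X:19792024-20016282 (224 kb), X:4981333-5201357 (220 kb), X:14161021-14366551 (206 kb) and X:4598413-4802391 (204 kb).

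Clusters present in a single replicate set some of these borders. The 227 kb stretch began just after X:12112110-12113493, a replicate 1 cluster scoring 0.71 with no partner. The 206 kb stretch ended at X:14366552-14369989, a replicate 2 cluster scoring 0.93 with no partner. In replicate 1 alone the gap there reached 331 kb, from 14143216 to 14473773, the longest of the X middle in that list. The longest in replicate 2 was 269 kb, from 7233022 to 7501727.

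Most X clusters had a close neighbour, and those with none within 20 kb scored lower. The nearest neighbour lay less than 5 kb away for most X clusters in replicate 1, under 1 kb for 31.9% and from 1 kb to under 5 kb for 44.1%. In replicate 2 these shares were 35.2% and 38.9%. Clusters with no neighbour within 20 kb made up 4.32% of the X middle in replicate 1 and 5.60% in replicate 2. They had lower median scores, 0.67 and 0.68, than those with a neighbour under 1 kb, 0.95 and 0.80. Scores of adjacent clusters had a Pearson's r of 0.21 over 878 neighbour pairs in replicate 1 and 0.23 over 964 in replicate 2. The arms gave 0.20 to 0.24, with pairs that share clusters and library.

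A single train of 10 or more clusters with gaps under 5 kb was found on X in each replicate, at overlapping positions. In replicate 1 it ran from 16164075 to 16231678, with 11 clusters over 67.6 kb and a median score of 1.43. In replicate 2 it ran from 16179543 to 16231660, with 10 clusters over 52.1 kb and a median score of 1.23. The arms held 0 to 3 such trains in replicate 1 and 3 to 9 in replicate 2. The train held 1.25% and 1.04% of X clusters, and such trains held up to 3.30% and 6.23% on the arms.

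The replicates marked much of the same X sequence. Of X clusters, 87.0% in replicate 1 and 80.5% in replicate 2 overlapped a cluster of the other list, against 88.2% and 78.0% over the whole lists, so the shares on X were near the background. The 114 unpartnered X clusters of replicate 1 had median scores and lengths of 0.53 and 1615 bp, and the 188 of replicate 2 had 0.60 and 1566 bp. The strongest without a partner in replicate 1 were X:3667686-3670922 (0.81), X:12112110-12113493 (0.71) and X:3654371-3656382 (0.71). In replicate 2 they were X:8603819-8606425 (1.03), X:18381458-18384207 (0.99) and X:14366552-14369989 (0.93). Over 658 clusters paired one to one, scores had a Pearson's r of 0.91, against 0.93 to 0.94 on the arms. Scores of these X pairs were higher in replicate 1 by 0.031, with an SD of 0.18 over pairs.

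The covered share of a 1 Mb window near the centromere-side end of the X middle differed between the replicates more than that of any other 1 Mb window of X or the 3 arms. In window X:18000001-19000000, clusters covered 13.3% in replicate 1 and 20.3% in replicate 2, with 50 and 71 clusters. That difference of 7.02 points compares with -1.85 to 2.76 points in the other 17 windows of X, and with -3.09 to 4.04 points on the 62 windows of the arms. Cluster counts differed by more elsewhere, as in 2L:5000001-6000000, with 55 and 78. Most of the coverage difference lay in 7 consecutive 100 kb windows, X:18100001-18800000, in each of which replicate 2 covered more, by 3.82 to 14.9 points. Clusters took up 17.2% of the block in replicate 1, 27.1% in replicate 2 and 33.4% in the replicate-set list. Outside it, the X middle was covered to 15.4% in each replicate and to 21.9% in the replicate-set list. Of the 71 replicate 2 clusters in the 1 Mb window, 32 (45.1%) had no partner, with medians of 0.61 in score and 1599 bp in length. In the whole X middle, 188 of 965 replicate 2 clusters had no partner, and 78.0% of the whole replicate 2 list had one. Over the 28 paired clusters of the block, replicate 1 minus replicate 2 was -0.049 in score (SD 0.21), and 10 pairs were higher in replicate 1. Over the 630 pairs of the rest of X it was 0.035 (SD 0.18). Means over the pairs of each of the 79 other 1 Mb windows of X and the arms ran from -0.046 to 0.12. The score difference of the block, which is shorter than those windows, lay just below that range. Its whole 1 Mb window, at -0.022 over 32 pairs, lay inside the range. The block was chosen after its values were seen, so no test was made. Library depth and copy number in this block were not tested. Leaving the 1 Mb window out kept the direction of all 5 differences between X and the arm mean.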

How the data were processed

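The submitters' processing notes name Bowtie 0.12.7 for the 2 ChIP and 2 input libraries. The authors deposited 1 list of enriched clusters per ChIP replicate and 1 for the replicate set, per the file headers on FlyBase release 5. Caller, calling threshold and matched input are unnamed in the labels and headers. The score deposited per cluster was taken as a log2 value, since among the 40 most frequent scores 700, 768 and 763 of 780 differences were log2 of ratios of whole numbers in replicate 1, replicate 2 and the replicate set (denominators up to 5000, relative tolerance 1e-11). The input libraries had no file used here, and depth is unknown.

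Starts and ends were read as 1-based and inclusive, and a cluster belonged to an arm middle by its midpoint. Covered sequence was clipped to the window, shared regions needed 1 bp of overlap, and gaps were counted within a list. X was compared with the mean of the 2L, 3L and 3R middles in each replicate, with an exact paired permutation test over the 2 libraries. Alternatives were the top-scoring 50% of each list, the replicate-set list, 1 or 4 Mb removed at each end, clusters less than 500 bp apart joined, each replicate left out, and 500 kb windows. X without its window from 18000001 to 19000000 was added after the data were seen. Named positions followed a rule: the 3 densest and 3 sparsest 1 Mb windows, the 3 densest 100 kb windows, the 3 longest runs of empty ones, the 5 longest and 5 highest-scoring shared regions, the 5 longest unmarked stretches and the 3 strongest unpartnered clusters per list. Other named windows, gaps and the cluster train were chosen after their values were seen. The members and lists were chosen with earlier results of these data known. Interval counts were tested on simulated data, where they matched per-base masks. Python 3.11.15, numpy 2.4.6, pandas 2.3.3, scipy 1.17.1 and statsmodels 0.14.6 were used.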

Additional observations from a re-analysis of the deposited data

Results flagged for a closer look

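The replicate-set list had 390 clusters in the X middle that no cluster of either replicate overlapped, so they lay outside the lists compared here. They were 28.6% of its 1362 X clusters, against 24.9% to 31.1% on the arms, and their medians were 0.40 in score and 1236 bp in length. The 715 that overlapped clusters of each replicate had medians of 0.94 and 3600 bp. How the replicates were combined is not stated, and whether the 390 clusters mark enriched sequence was not tested.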

How the results depend on the processing

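No paired analysis was possible because the input libraries that share the replicate numbers with the ChIP libraries had no file used here. The pairing in the reported test is of X with the arms inside each ChIP library. Values are X minus the mean of the 3 arms, and no test could pass its threshold in any setting. In the top-scoring 50% of each list, density (4.04 per Mb), covered share (1.18 points), median gap (-1382 bp) and the share of clusters of 5 kb or more (-2.50 points) changed direction, and the median score difference fell to 0.035. Fewer weak clusters on X make this selection unequal by construction. No other setting changed the direction of a mean difference. Single replicates gave -10.7 to -6.58 clusters per Mb, -2.08 to -1.60 points of coverage, 0.17 to 0.19 in score, 294 to 748 bp in median gap and 0.54 to 1.10 points in the share of 5 kb or more. The replicate-set list gave -3.31 points of coverage, 0.073 in score and 101 bp in gap. With 1 or 4 Mb removed at each end the mean gap difference was 320.0 and 334 bp, but replicate 1 alone turned to -42 and -109 bp, and with 4 Mb the share of 5 kb or more was 2.41 points. That share was 1.46 points after joining clusters and 1.35 without the window from 18000001 to 19000000. The cause was not tested. The median of the share covered in both replicates was 12.75% over 500 kb windows and 12.8% over 1 Mb windows. Unknown depth limits what the absence of weak clusters can show.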

Other observations

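Covered shares of neighbouring 1 Mb windows of the X middle were negatively correlated, without alternating throughout. In replicate 1 the share fell from window to window between 15000001 and 19000000, from 20.9% to 13.3%. Pearson's r between adjacent windows was -0.43 in replicate 1 and -0.40 in replicate 2, over 17 pairs that share windows. On 2L it was 0.33 and 0.35, on 3L 0.042 and 0.064, and on 3R -0.12 and -0.17. The value on X depended on the window size, at 0.022 and 0.079 over 35 pairs of 500 kb windows and 0.29 and 0.32 over 183 pairs of 100 kb windows. This is a description of windows placed at a fixed start, chosen after the values were seen, and no test was made.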
